A study of Mus musculus with 14 samples.

Results

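The major urinary proteins are small secreted carriers encoded by a cluster of Mup genes on mouse chromosome 4, and 8 of them (Mup3, Mup7, Mup10, Mup11, Mup12, Mup17, Mup20 and Mup21) are described here among the 48794 genes of the deposited tables. They were taken by symbol from a list set with earlier results of these data known, and all 8 were matched to an Ensembl identifier. Expression was measured by RNA sequencing in liver leukocytes sorted on CD45, the phosphatase on the surface of leukocytes, from needle biopsies. Each sorted sample held 2500, 5000, 10000 or 20000 cells, with 3 libraries per cell number, and bulk liver gave 2 libraries. All mice were labelled WT with no treatment, and the labels used here give no strain, sex or age. The labels do not say that replicates came from separate animals, so a p-value measures only the spread between these libraries, which may be technical. A lower level in sorted samples can come from fewer cells of a type or less RNA per cell, and these cannot be told apart.

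As background, major urinary proteins belong to the lipocalins, barrel-shaped proteins that hold small hydrophobic molecules. Hepatocytes make them in large amounts, the kidney passes them into urine, and there they bind volatile pheromones and release them slowly. In mouse liver many Mup genes are higher in males, under pulsed growth hormone acting through its receptor, the kinase Jak2 and the transcription factor Stat5b. Mup20 encodes darcin, a male scent protein that attracts females, and Mup3 and Mup20 proteins have been linked to aggression between males.

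Whether one Mup gene can be told from another depends on sequence, so a stretch of 90 coding bases is shown first. It is the end of the second coding exon in the GENCODE M21 transcripts of build GRCm38, 5′ to 3′ on the minus strand. In Mup10 it lies at chr4:60581521-60581610, in Mup11 at chr4:60661730-60661819, in Mup20 at chr4:62053480-62053569 and in Mup3 at chr4:62086800-62086889. Capitals mark bases that differ from Mup10 at the same place, and Mup22 is added because its stretch is identical to that of Mup10.
Mup10: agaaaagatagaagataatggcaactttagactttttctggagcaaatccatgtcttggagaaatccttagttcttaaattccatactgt
Mup22: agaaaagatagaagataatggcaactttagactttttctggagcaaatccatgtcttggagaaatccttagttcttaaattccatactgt
Mup11: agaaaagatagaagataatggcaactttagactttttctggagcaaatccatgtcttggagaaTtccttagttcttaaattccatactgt
Mup12: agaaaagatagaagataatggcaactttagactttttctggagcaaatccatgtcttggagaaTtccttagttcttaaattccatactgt
Mup7: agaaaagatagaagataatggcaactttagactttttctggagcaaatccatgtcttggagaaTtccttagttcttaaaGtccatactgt
Mup17: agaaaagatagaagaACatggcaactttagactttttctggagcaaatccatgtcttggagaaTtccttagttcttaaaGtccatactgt
Mup20: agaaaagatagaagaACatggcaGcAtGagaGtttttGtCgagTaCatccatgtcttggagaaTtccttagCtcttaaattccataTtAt
Mup21: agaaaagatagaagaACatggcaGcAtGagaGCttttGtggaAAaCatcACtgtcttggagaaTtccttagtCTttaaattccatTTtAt
Mup3: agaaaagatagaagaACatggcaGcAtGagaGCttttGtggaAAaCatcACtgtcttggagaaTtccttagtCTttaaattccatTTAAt
Mup11 and Mup12 each differed from Mup10 at 1 base of the stretch, Mup7 at 2 and Mup17 at 4. Mup20 differed at 14 bases, Mup21 at 19 and Mup3 at 20.

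The same grouping held over the whole coding sequence. Mup7, Mup10, Mup11, Mup12 and Mup17 were 98.35% to 99.26% identical to each other. The nearest copy of Mup11 was Mup18, with 1 differing base of 546, the nearest of Mup10 was Mup9 with 2 of 543, and the nearest of Mup12 was Mup1 with 2 of 543. Mup3 was nearest to Mup21, with 29 differing bases of 555, and Mup20 was nearest to Mup11 and Mup18, with 47 of 546 for each. Every 50-base word of each transcript was then searched in the transcripts of all other genes. For Mup3 84.39% of the words occurred in no other gene, for Mup21 80.73% and for Mup20 49.49%. For Mup17 the share was 21.87%, for Mup12 14.6%, for Mup10 13.78%, for Mup11 11.01% and for Mup7 3.64%. Most words of these last 5 genes were shared with other copies, so the values of single genes in that group are uncertain.

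The cluster holds 22 named Mup genes on chromosome 4 in GRCm38, 8 described here and 14 others. Mup3 lies at chr4:62083476-62087342, Mup20 at chr4:62050234-62054158, Mup21 at chr4:62147932-62150863 and Mup17 at chr4:61591929-61595871. Mup7 lies at chr4:60066469-60070475, Mup10 at chr4:60578260-60582199, Mup11 at chr4:60658466-60662411 and Mup12 at chr4:60737383-60741326. All 8 are on the minus strand.

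As a description of sequence, promoters of 2 of the Mup genes are shown, from RefSeq on GRCm38.p6. RefSeq windows of 300 bases, 250 before the start and 50 after, were matched for 6 of the 8 genes, and Mup12 and Mup20 were not among them. Mup11, at chr4:60662346-60662645, stands for the near-identical genes, and Mup3, at chr4:62087268-62087567, for the more distinct ones. Both read 5′ to 3′ on the minus strand, with 2 motifs in capitals, TATATAAG, which holds a TATA-like core, and ATCAAT, the core read by Onecut factors.
Mup11: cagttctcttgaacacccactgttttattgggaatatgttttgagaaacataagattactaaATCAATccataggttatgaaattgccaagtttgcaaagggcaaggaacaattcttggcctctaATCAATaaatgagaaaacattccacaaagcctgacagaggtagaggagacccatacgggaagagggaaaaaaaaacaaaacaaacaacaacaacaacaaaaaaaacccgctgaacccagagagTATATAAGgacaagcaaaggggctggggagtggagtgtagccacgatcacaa
Mup3: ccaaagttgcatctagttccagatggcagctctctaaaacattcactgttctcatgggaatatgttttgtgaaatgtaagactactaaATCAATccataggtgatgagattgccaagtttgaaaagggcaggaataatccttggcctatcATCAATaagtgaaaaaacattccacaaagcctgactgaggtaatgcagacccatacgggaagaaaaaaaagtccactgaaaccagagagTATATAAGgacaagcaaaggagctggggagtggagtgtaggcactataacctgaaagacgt
TATATAAG occurred on either strand in 5 of the 6 windows (Mup3, Mup10, Mup11, Mup17 and Mup21), against 1.01% of all 32851 promoter windows. ATCAAT occurred in all 6, against 7.54% of all windows, and it does not overlap TATATAAG in the windows shown. TTCNNNGAA, the motif read by Stat5, occurred in none of the 6 and in 8.30% of all windows. The 6 genes are related copies, so their windows are not independent of each other and these shares are a description. A match describes letters in this window only.

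The Mup genes were a trace of the RNA in sorted cells and among the most abundant transcripts in bulk liver. Summed over the 8 genes they took 0.0397% to 0.0647% of all TPM (a level per transcript length, scaled to the same total in each library) in the sorted libraries, with a median of 0.0478%. In the bulk libraries the same genes took 16.4% and 17.1% of TPM. As a share of counts, which are not divided by length, they took 0.00874% to 0.0140% in sorted libraries, with a median of 0.0107%, and 4.55% and 4.89% in bulk libraries. No sorted library came near a bulk library on either scale.

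By TPM in bulk liver, Mup7 was the highest of all genes in the table, with 44352 and 45611 TPM, and Mup20 was the next, with 47269 and 42499 TPM. Their ranges overlap, so their order is not settled by these libraries. Among the 8, Mup10 (26580 and 25772 TPM) and Mup3 (26684 and 25298 TPM) followed, again overlapping each other, with Mup22, a copy outside the 8, between them and Mup20. Mup11 had 17558 and 16518 TPM and Mup17 had 5689 and 5602 TPM. Mup21 followed with 1552 and 1386 TPM, and Mup12 was the lowest of the 8 with 838 and 874 TPM. From Mup3 downward each gene's values lay wholly above those of the next.

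The order was different when a level per length was computed from the counts. Counts divided by the exon length of GENCODE M21 and scaled as TPM put Mup3 first, at 33197 in bulk liver, and Mup20 next, at 23978. Mup7 then stood at 5309 and Mup10 at 0.291. Deposited TPM divided by this count-based value was 0.783 for Mup3, 0.597 for Mup21, 1.49 for Mup17 and 1.87 for Mup20. It was 4.45 for Mup12, 4.46 for Mup11 and 8.47 for Mup7. The 3 genes with the largest shares of words found in no other gene, and Mup17, were thus the ones of the 8 for which the scales differed by less than 2-fold. The 14 other Mup genes did not sort in this way. Mup6, with 95.67% of its words its own, had a ratio of 0.0911, Mup4, with 87.63%, had 0.042, and Mup5, with 82.88%, had 0.403, while Mup18, with 10.44%, had 0.920. Mup4, Mup5 and Mup6 had 35 to 232 counts in a bulk library.

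**Figure D1:**
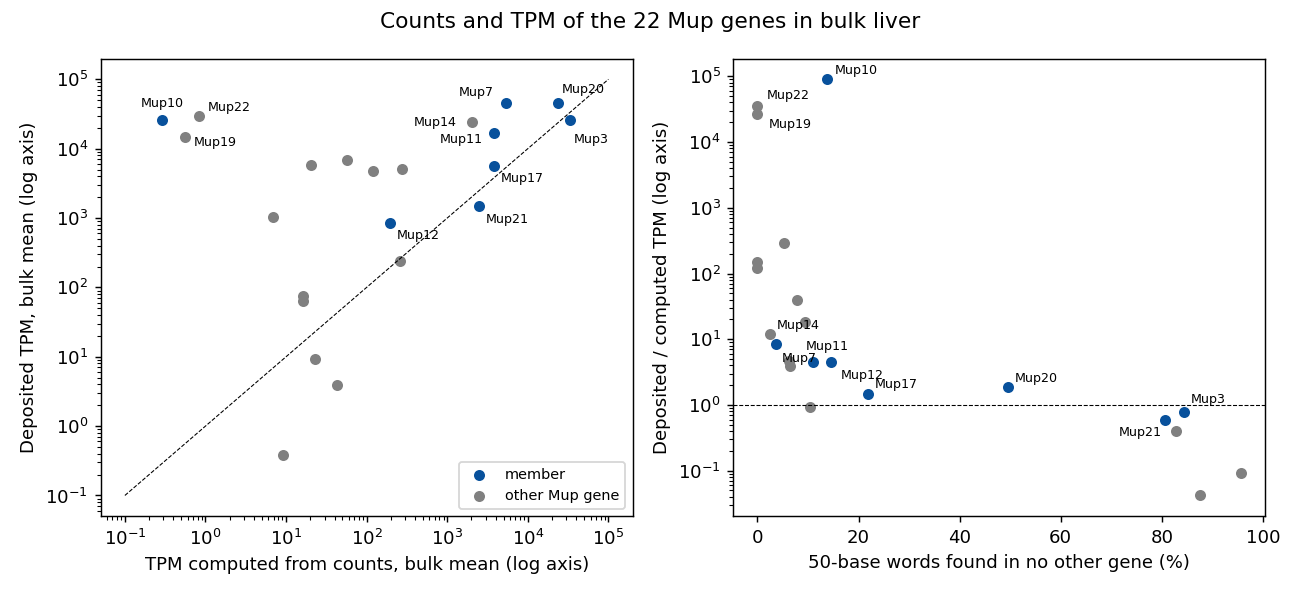
Left, deposited TPM (y axis, log) against TPM computed from the counts (x axis, log), bulk liver means, with 1 point per named Mup gene and the dashed line at equality. Right, the ratio of both (y axis, log) against the percent of 50-base words of the transcript found in no other gene. Mup3, Mup20, Mup21 and Mup17 lie near the line, while Mup10, Mup22 and Mup19 lie far above it and Mup4 and Mup6 far below it.

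Mup10 differed most between the tables. It had 1 count in 1 of the 2500-cell libraries and 0 in the other 11 sorted libraries, against 2 counts in each bulk library. The TPM of the same bulk libraries were 26580 and 25772. Mup22 had 5 and 2 counts but 29488 and 29130 TPM in bulk liver, and none of its 50-base words was its own. Over the 16 genes of the near-identical kind, 5 described here and 11 others, the summed share in bulk liver was 1.19% of counts and 18.7% of TPM. The sources used here do not say how reads that fit several copies were treated in each table.

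In sorted leukocytes the 7 Mup genes other than Mup10, which has too few counts to say, stood far below their level in bulk liver. Of the 8 genes, 7 had enough counts to be tested, and all 7 were lower in sorted cells, in a comparison in which 38.5% of the 16294 genes tested were lower. With TMM scaling 6273 genes were lower and 6806 higher in all, and with library totals 3654 were lower and 10738 higher, with the same 7 Mup genes lower. Genes were tested by edgeR's quasi-likelihood method, and p was adjusted over all of them after Benjamini and Hochberg. A gene enters it only if it has enough counts in 1 group, so these 7 are those with a sizeable level in bulk liver. CPM values are counts scaled to library size by the trimmed mean of M values (TMM).

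Mup3 is described in full because most of its transcript is its own. With 2500 cells it had 37.4, 52.4 and 34.9 CPM, with 5000 cells 42.4, 47.6 and 54.6 CPM, with 10000 cells 41.7, 43.6 and 45.4 CPM, and with 20000 cells 41.4, 36.3 and 44.2 CPM. In bulk liver it had 47179 and 44723 CPM. The sorted libraries lay within 1.56-fold of each other, and none overlapped bulk liver. Mup3 averaged 43.5 ± 5.99 CPM in the sorted libraries (SD, n = 12) and 45951 ± 1736 CPM in bulk liver (SD, n = 2), a log2 fold change of -10.05 ± 0.09 (SE), with an adjusted p of 3.30e-23 in the edgeR test.

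Mup20, the darcin gene, had 27.6, 29.8 and 26.7 CPM with 2500 cells, 28.7, 27.7 and 37.9 CPM with 5000 cells, 21.4, 25.6 and 23.8 CPM with 10000 cells, and 28.0, 21.7 and 27.8 CPM with 20000 cells. In bulk liver it had 30426 and 27227 CPM. The highest sorted value was in a 5000-cell library. All values with 10000 cells lay below those with 2500 and 5000 cells, and all 4 inputs lay far below bulk liver. The log2 fold change was -10.06 ± 0.08 (SE), with an adjusted p of 6.03e-25 in the edgeR test.

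Mup21, the gene nearest to Mup3 in sequence, ranged from 0.801 to 4.08 CPM over the 12 sorted libraries, with a median of 1.80 CPM, against 2267 and 2048 CPM in bulk liver. Behind the sorted values stand only 9 to 41 counts per library. The fitted log2 fold change was -10.11 ± 0.15 (SE), with an adjusted p of 1.18e-16 in the edgeR test.

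Among the near-identical genes, Mup11 ranged from 7.03 to 11.01 CPM in sorted libraries, with a median of 9.35 CPM, against 7964 and 7628 CPM in bulk liver. Mup7 ranged from 5.79 to 11.7 CPM in sorted libraries, with a median of 8.36 CPM, against 7010 and 7214 CPM in bulk liver. Mup17 ranged from 2.89 to 4.87 CPM in sorted libraries, with a median of 3.70 CPM, against 4538 and 4547 CPM in bulk liver. Each of the 3 was lower in every sorted library than in either bulk library. The share of all genes that separate in this way was not computed. Their log2 fold changes were -9.73 ± 0.05 for Mup11, -9.70 ± 0.11 for Mup7 and -10.25 ± 0.05 for Mup17 (SE), and the largest adjusted p of the 3 was 1.56e-19 in the edgeR test.

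Mup12 was the lowest of the genes tested. It had 1 to 7 counts per sorted library, with a median of 3, against 848 and 915 counts in bulk liver. The fitted log2 fold change was -9.29 ± 0.15 (SE), the smallest in size of the 7, with an adjusted p of 2.79e-21 in the edgeR test. Mup12 entered this test only through its level in bulk liver, so its direction could hardly have been otherwise. Mup10 did not pass the filter on low counts. Its share of all counts in sorted cells over that in bulk liver was 0.0343, from 1 count over all sorted libraries and 4 over both bulk libraries. The exact 95% interval of this ratio, for counting error only, ran from 0.000696 to 0.346.

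**Figure D2:**
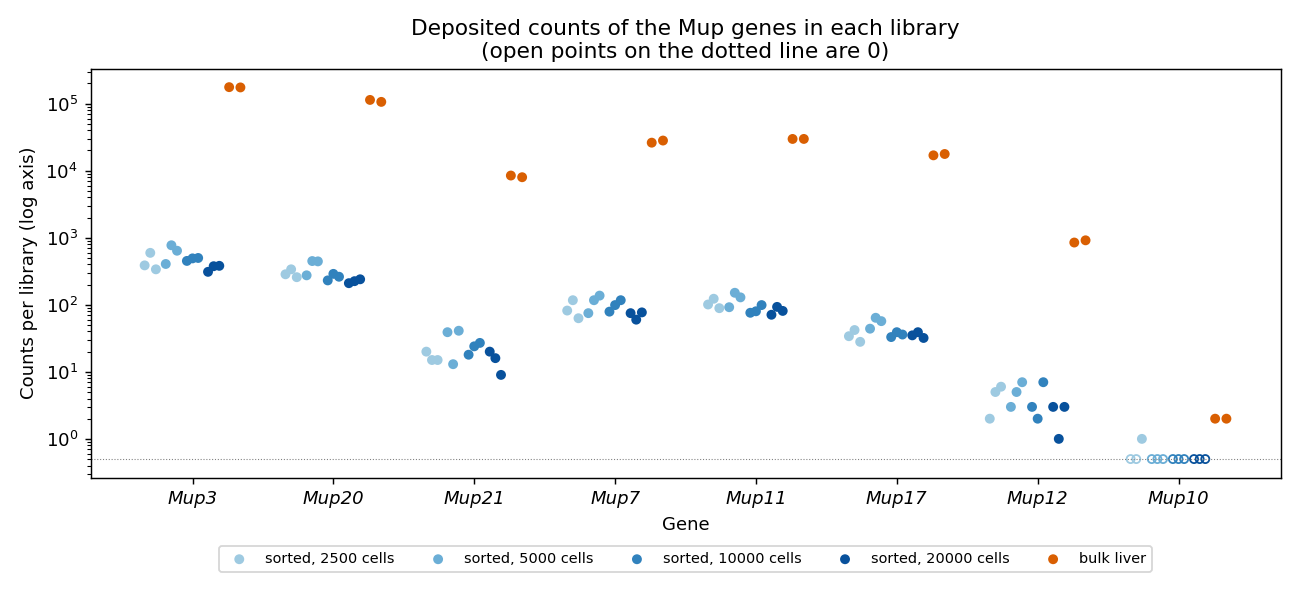
Deposited counts (y axis, log) of the 8 Mup genes in each of the 14 libraries, with 1 point per library, sorted cells in blue by cell number and bulk liver in orange. Each gene is higher in both bulk libraries than in any sorted library, but for Mup10 this rests on 2 counts against at most 1. The share of all genes that separate in this way was not computed.

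The size of the residual depended on the scale. With TMM scaling the sorted level averaged 0.0947% ± 0.0130 of the bulk mean for Mup3 and 0.0945% ± 0.0149 for Mup20 (SD, n = 12). With library totals it was 0.218% ± 0.0304 for Mup3 and 0.218% ± 0.0342 for Mup20. With deposited TPM it was 0.308% ± 0.0413 for Mup3 and 0.314% ± 0.0477 for Mup20. Over the 7 genes other than Mup10 the mean residual ran from 0.0830% to 0.159% with TMM scaling, from 0.191% to 0.367% with library totals and from 0.273% to 0.569% with TPM. Mup12 was the highest on each of these scales, and by TPM its highest library stood at 1.21%.

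Other hepatocyte genes had residuals of like size. Over the 7 Mup genes the median residual was 0.0954% with TMM scaling, 0.220% with library totals and 0.327% with TPM, against 0.105%, 0.243% and 0.355% for 26 hepatocyte genes in the same order of scales. The median log2 fold change of the 7 Mup genes was -10.05. All 26 hepatocyte genes were lower in sorted cells, where 38.5% of all genes tested were lower. They were listed as hepatocyte genes and could enter the test through bulk liver alone, so this count is a description. Their log2 fold changes ran from -11.88 to -6.98 with a median of -9.94, and the median of all genes tested was 0.17. Relative to all genes the Mup median was -10.22 with TMM scaling and -10.21 with library totals, which moved the median of all genes to 1.37. The summed counts of the hepatocyte list took 0.0277% to 0.0449% of counts in sorted libraries and 11.8% and 11.9% in bulk liver, and the part of hepatocyte RNA in the Mup residual was not tested.

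**Figure D3:**
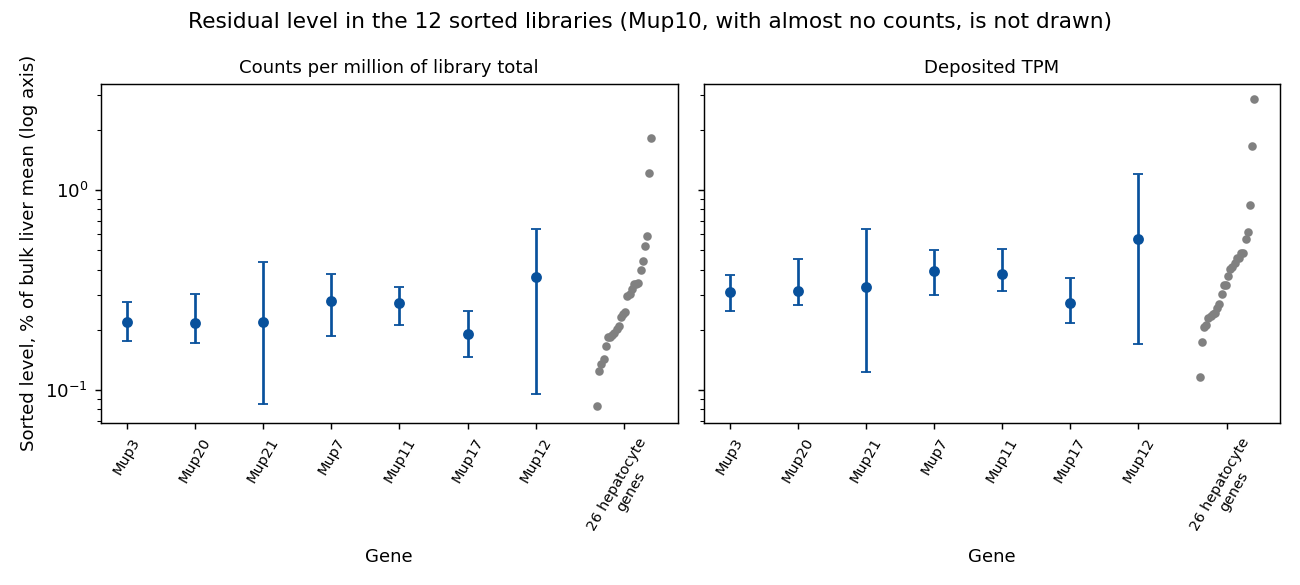
Level in sorted libraries as a percent of the bulk liver mean (y axis, log) for 7 Mup genes, as the mean (point) and the lowest and highest of 12 libraries (whiskers), beside the means of 26 hepatocyte genes (grey points). Counts over library totals are on the left and TPM on the right, and all Mup means lie within the range of the hepatocyte genes on both.

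Relative to the summed counts of the hepatocyte list, Mup counts were lower in each sorted library than in either bulk library. For every 100 counts of the hepatocyte list there were 26.2 to 35.6 Mup counts in sorted libraries, with a median of 28.6, against 38.2 and 41.3 in bulk liver. The groups did not overlap, and within the inputs the mean ran from 27.3 ± 1.31 with 10000 cells to 33.2 ± 2.16 with 20000 cells (SD, n = 3 each). Per 100 TPM of the list there were 90.7 to 129 Mup TPM in sorted libraries and 176 and 186 in bulk liver. Both ratios use the sum of the list, whose genes differed in residual. With TMM scaling it ran from 0.0362% for Cps1 to 0.791% for Ass1, with a median of 0.105%. Serpina3k had 0.255%, Alb 0.101% and Ahsg 0.104%, against 0.0947% for Mup3 and 0.0945% for Mup20. The ratios thus depend on the genes in the list, and a lower Mup level relative to hepatocyte RNA was not tested.

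By counts, the mix of the 8 genes was similar in both kinds of sample. Mup3 gave 46.0% ± 2.85 of the Mup counts in sorted libraries (SD, n = 12) and 47.6% ± 0.288 in bulk liver (SD, n = 2). Mup20 gave 28.7% ± 2.09 in sorted libraries and 29.8% ± 1.03 in bulk liver. Mup21 gave 2.16% ± 0.905 in sorted libraries and 2.23% ± 0.0625 in bulk liver. For these 3 genes the range over sorted libraries took in the bulk mean, as it did for Mup11, Mup12 and Mup17. Mup7 gave 9.01% ± 1.15 in sorted libraries and 7.37% ± 0.473 in bulk liver, and its libraries overlapped between the groups.

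By TPM the mix differed at Mup10, Mup7 and Mup11, whose shares did not overlap between the groups. Mup10 gave 0.315% ± 0.903 of the Mup TPM in sorted libraries (SD, n = 12) and 15.7% ± 0.120 in bulk liver (SD, n = 2). With 2500 cells it was listed at 0.66, 0 and 15.1 TPM, with 5000 cells at 0, 0 and 1.16 TPM, with 10000 cells at 0, 0 and 1.47 TPM, and with 20000 cells at 0 TPM in all 3 libraries. It was thus at 0 in 8 of 12 sorted libraries, with the other values below every bulk value. Its mean residual by TPM, 0.00585%, lay far below those of the other 7 genes. Mup7 gave 34.0% to 38.8% of the Mup TPM in sorted libraries, against 26.01% and 27.89% in bulk liver. Mup11 gave 11.1% to 14.48% in sorted libraries, against 10.1% and 10.3% in bulk liver. With Mup10 left out of the total, a step added after these values were seen, Mup7 gave 34.0% to 38.9% in sorted libraries, against 30.8% and 33.1% in bulk liver. Mup3 then gave 13.9% to 18.3% in sorted libraries, against 18.4% and 18.5% in bulk liver, and the other 5 genes overlapped between the groups.

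The copies nearest to Mup10 were set beside it after these values were seen. Mup9 differs from it at 2 bases of the coding sequence, Mup19 at 3, and Mup2, Mup16 and Mup22 at 4 each. By TPM, the level in sorted libraries averaged 0.191% ± 0.0959 of the bulk mean for Mup9, 0.190% ± 0.0656 for Mup19 and 0.263% ± 0.268 for Mup2 (SD, n = 12). It averaged 0.358% ± 0.0954 for Mup16 and 0.673% ± 0.0896 for Mup22. By counts Mup2, Mup19 and Mup22 were at 0 in every sorted library. Their TPM there have no counts beside them, so the order of these copies is uncertain. All 5 averages lay above that of Mup10. Those of Mup9, Mup19 and Mup2 lay below the range of the other 7 genes, that of Mup16 within it and that of Mup22 above it. All 22 named Mup genes summed had a residual of 0.340% by TPM.

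**Figure D4:**
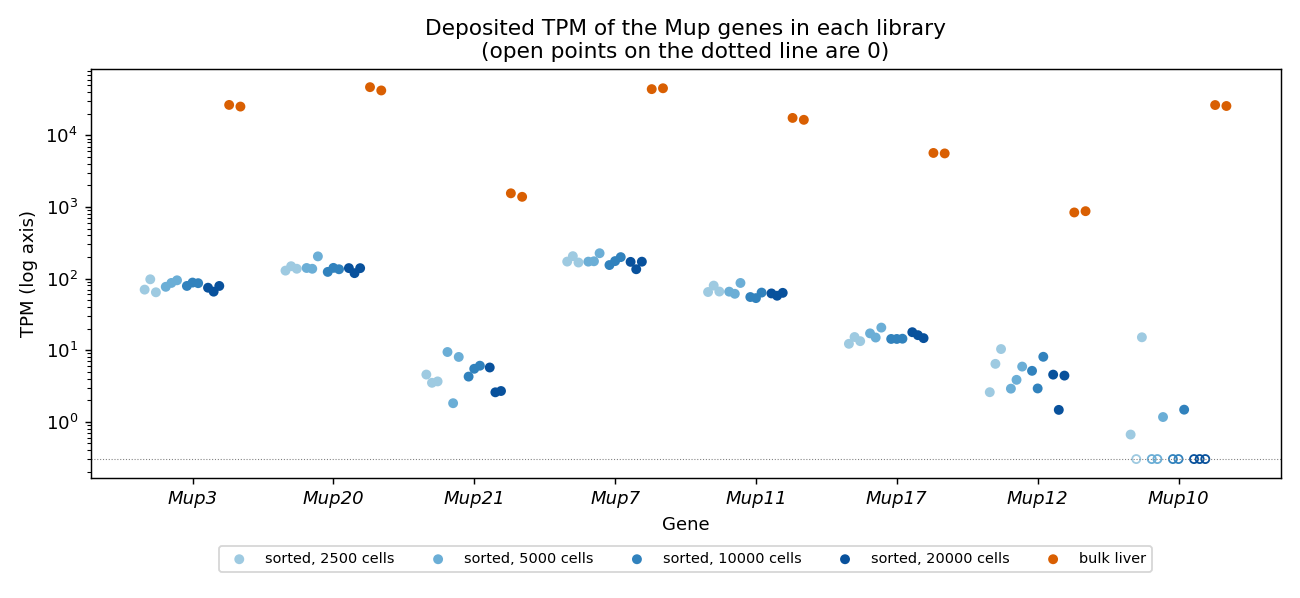
Deposited TPM (y axis, log) of the 8 Mup genes in each of the 14 libraries, with sorted cells in blue by cell number, bulk liver in orange and open points for values of 0. Mup10 is at 0 in 8 of the 12 sorted libraries but reaches the level of Mup3 in bulk liver.

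Other Mup genes and pseudogenes were read in the same fit. Of 14 further Mup genes 12 could be tested, and of 27 Mup pseudogenes 7 could, and all of these were lower in sorted cells, where 38.5% of all genes tested were lower. Most entered the test only through their level in bulk liver, so that direction could hardly fail and the counts are a description. Mup2, Mup4, Mup13, Mup19 and Mup22 had 0 counts in every sorted library, and no pseudogene had more than 3 counts in any. Mup14, the most abundant of the other genes by counts, had 4.34 ± 0.969 CPM in the sorted libraries (SD, n = 12) and 3604 ± 43.7 CPM in bulk liver (SD, n = 2).

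No Mup gene passed a test between the numbers of sorted cells. In fits on the 12 sorted libraries 6 Mup genes had enough counts, all but Mup10 and Mup12. In the edgeR test none of the 6 passed between 2500 and 20000 cells (0 at an unadjusted p under 0.05), where 0.419% of 14795 genes passed. None passed for any difference between the 4 inputs, where 0.297% of genes passed, or for a slope on the log2 of cell number, where 0.0811% passed. Mup20 was the only one of the 6 with an unadjusted p under 0.05, in the tests of any difference (adjusted p of 0.447, edgeR) and of 5000 against 20000 cells. DESeq2 and limma-voom also called 0 of the Mup genes in each of these tests.

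Between 2500 and 20000 cells Mup3 differed by 0.05 ± 0.14 (log2 fold change ± SE) and Mup20 by 0.13 ± 0.14. Mup21, with few counts, differed by -0.10 ± 0.52. The values over the 6 genes ran from -0.28 for Mup17 to 0.13 for Mup20. Between 5000 and 20000 cells Mup20 differed by 0.29 ± 0.14, with an adjusted p of 0.612 in the edgeR test. In that comparison 0.0879% of all genes passed. A p that misses the threshold does not show that inputs are alike.

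**Figure D5:**
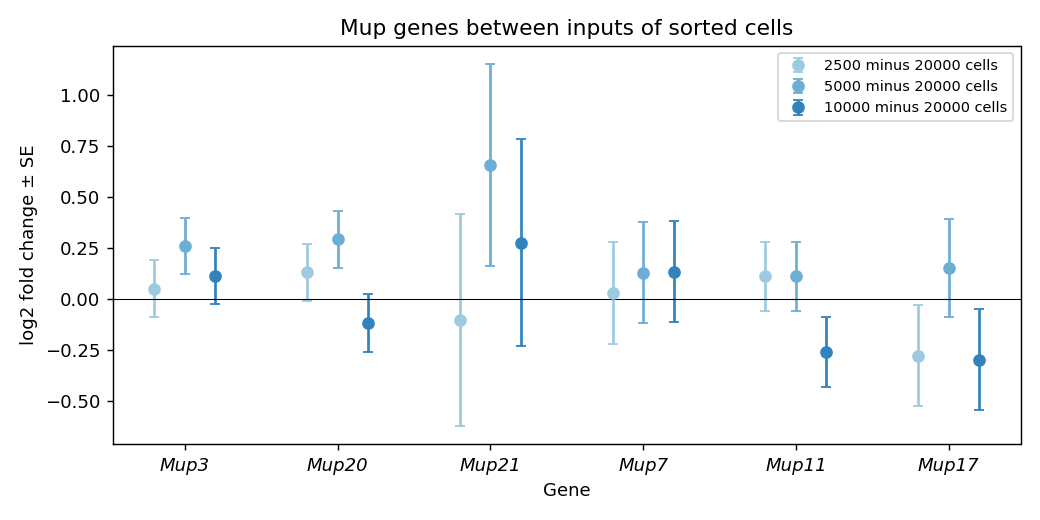
Log2 fold change ± SE (y axis) of 6 Mup genes for 2500, 5000 and 10000 cells, each minus 20000 cells. The comparisons share the 20000-cell libraries, and no value passed the adjusted threshold.

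The growth hormone and liver factor list, which holds known regulators of Mup genes in liver, held genes of both directions. Of its 22 genes 21 were tested, of which 14 were lower in sorted cells, 5 higher and 2 did not pass. Of all genes tested 38.5% were lower and 41.8% higher. The median log2 fold change of the list was -4.61. With library totals 11 were lower and 8 higher. Ghr, the growth hormone receptor, had 1.79 ± 0.982 CPM in the sorted libraries (SD, n = 12) and 1560 ± 1.27 CPM in bulk liver (SD, n = 2), with a log2 fold change of -9.91 ± 0.10 (SE). Hnf4a, a nuclear receptor of hepatocytes, had 0.438 ± 0.313 CPM in the sorted libraries and 502 ± 29.6 CPM in bulk liver, with a log2 fold change of -10.13 ± 0.16 (SE). Both were close to the Mup genes in size of change.

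Igf1, a growth hormone target that macrophages also make, and Cebpa, a factor of hepatocytes and myeloid cells, fell with smaller log2 fold changes. Igf1 had 8.87 ± 1.67 CPM in the sorted libraries and 885 ± 13.6 CPM in bulk liver, a log2 fold change of -6.63 ± 0.10 (SE). Cebpa had 14.6 ± 2.94 CPM in the sorted libraries and 352 ± 20.4 CPM in bulk liver, a log2 fold change of -4.61 ± 0.10 (SE). Onecut1, whose core motif is in capitals above, had a log2 fold change of -8.50 ± 0.70 (SE). Such a gene can enter the test through bulk liver alone, so its direction is a description. A link between the motif and Mup levels was not tested. Jak2, the kinase bound to the receptor, was higher in sorted cells by 3.17 ± 0.09 on the log2 scale (SE). Stat5b, the factor it activates, was higher by 0.32 ± 0.08 on the log2 scale (SE), beside the median of 0.17 over all genes.

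The wider lipocalin family was read beside the Mup genes. Of 10 such genes 9 were tested, 7 lower and 2 higher in sorted cells, with a median log2 fold change of -7.99. Of all genes tested 38.5% were lower and 41.8% higher. Rbp4, the plasma carrier of retinol, had 8.78 ± 1.26 CPM in the sorted libraries (SD, n = 12) and 9417 ± 25.4 CPM in bulk liver (SD, n = 2). Ambp, the precursor of alpha-1-microglobulin, had 4.78 ± 1.18 CPM in the sorted libraries and 5079 ± 74.9 CPM in bulk liver. The log2 fold change was -10.05 ± 0.09 (SE) for Ambp, close to the Mup median. Orm1, an acute-phase plasma protein, had 1.51 ± 0.633 CPM in the sorted libraries and 1442 ± 81.3 CPM in bulk liver. C8g, a complement subunit, had 4.40 ± 0.867 CPM in the sorted libraries and 1126 ± 39.1 CPM in bulk liver. The higher genes were Lcn2, an iron-siderophore binder of neutrophils, by 1.73 ± 0.68, and Apod by 6.03 ± 1.95 on the log2 scale (SE), and without bulk liver replicate 2 neither passed (1 of them without replicate 1).

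By the whole profile over 14 libraries, the genes most like the summed Mup genes were Rbp4, Ahsg, Fabp1, Alb and Acaa1b, out of 2594 tested genes not named Mup with at least 100 CPM in bulk liver. Likeness was the root mean square difference of log2(CPM + 0.1), each profile centred on its bulk mean. It was 0.15 for Rbp4 and for Ahsg, a plasma glycoprotein, 0.18 for Fabp1, a fatty acid carrier, 0.20 for Alb, albumin, and 0.26 for Acaa1b, a peroxisomal thiolase. Alb had 43.2 ± 7.48 CPM in the sorted libraries and 42975 ± 1126 CPM in bulk liver.

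Since Mup levels differ between the sexes in mouse liver, genes that mark sex were read beside them. All 10 genes known to be higher in male liver were tested, and all were lower in sorted cells, with a median log2 fold change of -10.18. Of all genes tested 38.5% were lower and 41.8% higher. A gene can enter the test through bulk liver alone, so this count is a description. Cyp2d9, a male-biased cytochrome P450, had 1.66 ± 0.610 CPM in the sorted libraries (SD, n = 12) and 2837 ± 64.8 CPM in bulk liver (SD, n = 2). Of 12 genes known to be higher in female liver only 2 had enough counts to be tested, and the highest, Fmo2, had 0.0318 ± 0.0855 CPM in the sorted libraries and 10.9 ± 2.38 CPM in bulk liver. Xist had 0 to 7 counts in sorted libraries and 0 and 2 counts in bulk liver. Of 4 Y-linked genes 3 were higher in sorted cells and 1 did not pass, and with library totals all 4 were higher. Ddx3y, one of them, had 1037 to 2579 counts in sorted libraries and 433 and 445 counts in bulk liver. The levels of the Mup genes given here thus come from libraries with Y-linked transcripts throughout, and no female comparison was made.

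The labelled cell types were read from their markers. All 6 genes of leukocytes in general were higher in sorted cells, where 41.8% of all genes tested were higher and 38.5% lower. Ptprc, which encodes CD45, had 2249 ± 67.6 CPM in the sorted libraries (SD, n = 12) and 21.3 ± 5.45 CPM in bulk liver (SD, n = 2), a log2 fold change of 6.72 ± 0.11 (SE). The 3 T cell, 3 B cell and 3 monocyte genes were all higher, and the 4 sinusoidal endothelial, 4 stellate and fibroblast and 3 erythroid genes were all lower. Of 4 cholangiocyte genes 3 were lower and Epcam did not pass. With library totals 2 were lower and 1 higher. The 5 Kupffer cell genes were all lower, with a median log2 fold change of -0.95. With library totals none was lower and 2 were higher, with a median of 0.26. Total counts ranged from 6723357 to 14496314 in sorted libraries and were 7605290 and 8034138 in bulk liver.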

How the data were processed

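RNA from 12 samples of sorted CD45+ liver leukocytes and 2 of bulk liver was reverse transcribed and amplified with a SMART-seq v4 kit and tagmented, per the labels' protocols. The authors deposited raw counts per gene as whole numbers, and TPM per gene in a separate deposited table. The genome build was GRCm38, per the submitters' processing notes, which list featureCounts 1.5.1, RSEM 1.3.0, STAR 2.5.2b, DESeq2 1.34.0 and FastQC 0.11.5 with no role. The sources used here do not say how reads that fit several genes were handled. A TPM value computed from the counts differed from the deposited TPM for several Mup genes.

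Counts were tested with edgeR 4.0.16 in R 4.3.3 (quasi-likelihood, robust, TMM factors, filterByExpr by group, Benjamini-Hochberg over all genes tested, threshold 0.05). All 14 libraries entered the fit against bulk liver and the 12 sorted libraries the fits between inputs. DESeq2 1.42.0, limma 3.58.1, other scalings, no filter, log2(TPM + 1) and log2(TPM + 0.1), a replicate block and leaving out each library were alternatives. The fits were also run on simulated data with fewer and smaller changes than seen against bulk liver, so that run cannot test the scaling of that comparison. Genes named were the 8 members, Ptprc, for each list the 4 genes most abundant by CPM in bulk liver and the 5 with the most similar profile, and others were chosen after their values were seen. The members and lists were chosen with earlier results of these data known. Gene symbols were found for 48348 of 48794 identifiers. Replicate numbers were not treated as pairs. Intervals cover counting error only.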

Additional observations from a re-analysis of the deposited data

How the results depend on the processing

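Against bulk liver the 7 Mup genes tested passed in every alternative run, and the count was 8 with no filter on low counts and with limma on log2(TPM + 1) or log2(TPM + 0.1), where Mup10 entered as well. Its fitted log2 fold change, which depends on the prior count, was -4.76 without the filter, -14.08 with log2(TPM + 1) and -16.51 with log2(TPM + 0.1). For the other 7 genes the log2 fold change kept its sign, and Mup3 ran from -10.10 to -9.95 when each library was left out in turn and from -10.16 to -8.34 under the other settings. Calls ran from 18 to 20 in the growth hormone and liver factor list, from 7 to 9 among other lipocalins and stayed at 26 for hepatocyte genes. Per 100 of the hepatocyte list, the Mup genes came to 105 by TPM in sorted libraries, against 29.4 by counts, and to 181 by TPM in bulk liver, against 39.8 by counts.

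Between inputs 0 Mup genes passed under each of 18 alternatives per test. The counts over all genes were less stable. Between 2500 and 20000 cells 62 genes passed with edgeR, 267 with DESeq2, 397 without the filter and 19 to 67 when a library was left out. For any difference 44 passed with edgeR, 309 with DESeq2, 605 without the filter and 20 to 104 when a library was left out. For the slope 12 passed with edgeR, 127 with DESeq2 and 0 to 10 when a library was left out. The cause was not tested.

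Deviations of sorted samples with the same replicate number correlated between -0.0826 and 0.061, and those with different numbers between -0.0846 and 0.0874. With so few libraries per group, these values cannot show whether equal numbers share an animal or biopsy. With the replicate block 7 Mup genes passed against bulk liver and 0 between inputs, and the slope over all genes had 0 calls. Few counts limit Mup12 and Mup21 in sorted cells. Mup10 has few counts in bulk liver too, where its TPM are high, and the cause was not tested. The near-identical copies limit every value of a single gene among Mup7, Mup10, Mup11, Mup12 and Mup17.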
